A study of Homo sapiens with 8 samples.

Results

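The messages of 10 genes that restrain the kinase complex mTORC1, act on the cap-binding protein eIF4E or carry the mTORC1 signal onwards were read from the deposited counts: DDIT4, SESN1, SESN2, SESN3, DEPTOR, CASTOR1, EIF4EBP1, EIF4EBP2, MKNK2 and RPS6KB1. They were chosen by gene symbol, and all 10 symbols were found among the 58787 genes of the table. The cells were IMR32, an established human neuroblastoma line with amplified MYCN, labelled wild type. They were given CR31B at its IC50 or 0.1% DMSO, the vehicle, for 6 h, with 4 libraries of polyadenylated RNA in each group. CR31B is a rocaglate, a class of compounds that clamps the RNA helicase eIF4A onto messages. The series describes the 4 replicates as biological. All libraries come from 1 cell line, so the spread between them is the spread between cultures of that line.

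mTORC1 joins signals from growth factors, energy and amino acids, and when active it promotes protein synthesis. Its best known substrates in translation are the S6 kinases, which it activates, and the 4E-BPs, which hold eIF4E away from the scaffold eIF4G until mTORC1 phosphorylates them. eIF4E, eIF4G and eIF4A together make up eIF4F, the complex that loads ribosomes onto capped messages. The quantities given here are messages, and neither the proteins nor their phosphorylation were measured.

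Totals ran from 43687828 to 64715535 counts per library. Both libraries of replicate 1 were sequenced paired-end and replicates 2 to 4 single-end, per the labels. The replicate 1 libraries stood apart from their labels. On the first principal component the single-end libraries labelled CR31B scored 19 to 29 and those labelled DMSO -29.4 to -25.8, while the library labelled CR31B replicate 1 scored -26.4 and the library labelled DMSO replicate 1 scored 32. Genes that passed the test within replicates 2 to 4 and entered both fits numbered 6882, and 6806 of them (98.9%) differed the opposite way in pair 1. Each result is therefore given for all 8 libraries as labelled and for the 6 single-end libraries, with pair 1 apart. Directions below are those of the labels of replicates 2 to 4. All 8 markers of adrenergic neuroblasts reached 1 CPM (TMM-scaled counts relative to library size). Of 6 markers of other cell types only COL1A1 did, at 16.6 to 30.7 CPM, while PRRX1 and SOX10 had 0 counts in all 8 libraries. The summed level of the other-type markers ran from 19.9 to 31.0 CPM under the CR31B label and from 16.9 to 28.6 CPM under the DMSO label, and its part in the results was not tested.

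With all 8 libraries as labelled, 9 of the 10 genes had enough counts to be tested and 0 passed an adjusted p of 0.05 (edgeR quasi-likelihood test, Benjamini-Hochberg over 16518 genes). None of the 9 had an unadjusted p under 0.05 either. Over all genes 0% were called, and 1.24% had an unadjusted p under 0.05. For 0 of the 10 genes were the groups of 4 separate, beside 0.66% of all genes. Within the single-end libraries 6 of the 9 passed, 3 higher and 3 lower under CR31B, where 41.3% of 16696 tested genes passed, 23.8% higher and 17.6% lower. DDIT4, SESN2 and EIF4EBP1 were the higher ones, and SESN1, EIF4EBP2 and MKNK2 the lower ones. Unadjusted, 6 of the 9 had a p under 0.05, beside 49.2% of all genes. Of the 6, DDIT4 and SESN2 changed at least 2-fold, both upwards, where 2.68% of all genes changed by as much in either direction and 1.99% upwards. The median log2 difference of the 9 was 0.12, beside -0.01 over all tested genes.

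DDIT4 and SESN2 were more than 3 times as abundant in the single-end CR31B libraries as in the DMSO libraries, and both ran the opposite way in replicate 1. DDIT4 (also called REDD1) is a stress-induced protein that restrains mTORC1 through the TSC complex. SESN2 is a sestrin, a leucine-binding protein that holds back the GATOR2 complex and so keeps the Rag GTPases from recruiting mTORC1 to the lysosome. Their promoters are shown because these 2 messages had the largest changes of the set. Each line is the 250 bases before the RefSeq start site (GRCh38.p14), with ATTGG, the reverse complement of the CCAAT box, in capitals. CCAAT was searched after the sequences had been read. On either strand it occurs in 34.6% of promoter windows of 300 bases. DDIT4 is read on the plus strand at chr10:72273674-72273923 and SESN2 on the plus strand at chr1:28259268-28259517.
DDIT4: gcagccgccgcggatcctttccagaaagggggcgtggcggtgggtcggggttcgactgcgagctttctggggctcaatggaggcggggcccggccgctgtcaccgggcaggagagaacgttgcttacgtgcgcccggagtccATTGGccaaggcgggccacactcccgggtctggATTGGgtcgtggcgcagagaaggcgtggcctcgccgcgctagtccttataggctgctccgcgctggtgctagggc
SESN2: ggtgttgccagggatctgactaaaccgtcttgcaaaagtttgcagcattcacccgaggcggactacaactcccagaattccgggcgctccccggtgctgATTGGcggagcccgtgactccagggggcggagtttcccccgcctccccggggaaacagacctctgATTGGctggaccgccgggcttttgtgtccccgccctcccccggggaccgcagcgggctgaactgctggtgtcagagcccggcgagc
The capitals begin 108 and 75 bases before the start in DDIT4, and 151 and 86 bases before it in SESN2.

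DDIT4 (ENSG00000168209, chromosome 10, 72273920 to 72276036, plus strand, GRCh38) had 60.1, 84.6 and 89.2 CPM in CR31B replicates 2 to 4 and 26.1, 23.1 and 22.2 CPM in the matching DMSO libraries. In replicate 1 it had 32.2 CPM under the CR31B label and 90.9 CPM under the DMSO label. The single-end groups did not overlap, and CR31B replicate 2 was the lowest of the treated libraries. The single-end means were 77.9 ± 15.6 against 23.8 ± 2.03 CPM (SD, n = 3). The fitted change was 3.28-fold, a log2 fold change of 1.71 ± 0.13 (SE, adjusted p = 6e-06, edgeR), which ranked 43 of 16696 by size of rise. By pair the log2 differences were 1.20, 1.87 and 2.01 in pairs 2 to 4 and -1.50 in pair 1. With all 8 libraries the means were 66.5 ± 26.2 and 40.6 ± 33.6 CPM (SD, n = 4), and the groups overlapped. The log2 fold change fitted with layout as a covariate was 1.02 ± 0.53 (SE, adjusted p = 0.707, edgeR). Without the layout term it was 0.72. Of the exonic bases of DDIT4, 41.16% are overlapped on the opposite strand by DDIT4-AS1, which had 0 counts in all 8 libraries. The name of the deposited table carries the word reverse, but no source used here says whether that is the strand setting of the counting. Without strand, reads of the 2 genes could not be told apart.

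SESN2 (ENSG00000130766, chromosome 1, 28259527 to 28282491, plus strand) had 32.9, 36.7 and 39.9 CPM in CR31B replicates 2 to 4, where DMSO had 9.57, 10.7 and 12.1 CPM. The replicate 1 libraries held 10.4 CPM under the CR31B label and 37.6 CPM under the DMSO label. Each replicate 1 library lay within the single-end range of the other group. The single-end means were 36.5 ± 3.51 and 10.8 ± 1.27 CPM (SD, n = 3), a 3.39-fold change with a log2 fold change of 1.76 ± 0.10 (SE, adjusted p = 1.11e-06, edgeR), rank 35 of 16696. Its pair differences were 1.78, 1.78 and 1.72 in pairs 2 to 4, a narrower range than those of DDIT4, and -1.85 in pair 1. As labelled over 8 libraries the log2 fold change was 1.0 ± 0.59 (SE, adjusted p = 0.707).

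The other sestrins did not share the change of SESN2. SESN1 (ENSG00000080546, chromosome 6, 108986437 to 109094819, minus strand), a known p53 target, had 18.3, 17.2 and 17.0 CPM in CR31B replicates 2 to 4 and 19.3, 20.7 and 21.8 CPM in DMSO. The single-end groups did not overlap, with the highest CR31B and the lowest DMSO library both in replicate 2. In replicate 1 the order was opposite, with 18.7 CPM for CR31B and 16.5 CPM for DMSO. SESN1 was 14.9% lower in the single-end libraries, with a log2 fold change of -0.23 ± 0.07 (SE, adjusted p = 0.0264, edgeR). Over 8 libraries it was -0.13 ± 0.10 (adjusted p = 0.707). The single-end call was lost without CR31B replicate 3 (adjusted p = 0.0545), CR31B replicate 4 (0.0971), DMSO replicate 3 (0.0734) or DMSO replicate 4 (0.121).

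SESN3 (ENSG00000149212, chromosome 11, 95165513 to 95232541, minus strand), known as a FOXO target, had 19.3, 26.6 and 24.0 CPM in the single-end CR31B libraries and 21.1, 21.2 and 21.7 CPM in DMSO. CR31B replicate 2 lay below all DMSO libraries and the other 2 above them, so the groups overlapped. The replicate 1 libraries had 20.6 CPM (CR31B) and 21.1 CPM (DMSO). Its log2 difference was 0.13 ± 0.10 (SE, adjusted p = 0.335, edgeR) in the single-end libraries and 0.09 ± 0.11 (0.752) over all 8, and neither passed. Without CR31B replicate 2 the single-end value passed, at 0.25 with an adjusted p of 0.0195.

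DEPTOR, a protein that binds mTOR and lowers its activity, and CASTOR1, an arginine sensor that holds back GATOR2, were scarce. DEPTOR (ENSG00000155792, chromosome 8, 119873717 to 120050913, plus strand) had 21 to 40 counts per library, or 0.409 to 0.695 CPM. Its single-end groups overlapped, with a log2 difference of 0.12 ± 0.25 (SE, adjusted p = 0.743, edgeR), so no change was detectable at this depth. Over 8 libraries it was 0.06 ± 0.21 (adjusted p = 0.904), and the replicate 1 libraries had 0.656 CPM (CR31B) and 0.695 CPM (DMSO). CASTOR1 (ENSG00000239282, chromosome 22, 30285117 to 30289627, minus strand) had 4 counts in all, 3 under the CR31B label and 1 under DMSO. Every library was under the limit of 3 counts, equal to 0.0464 to 0.0687 CPM, so no fold is given. CASTOR1 shares 45.96% of its exonic bases with another gene on the same strand, ENSG00000248751, which had 0 counts in all 8 libraries, so its own level is uncertain.

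**Figure D1:**
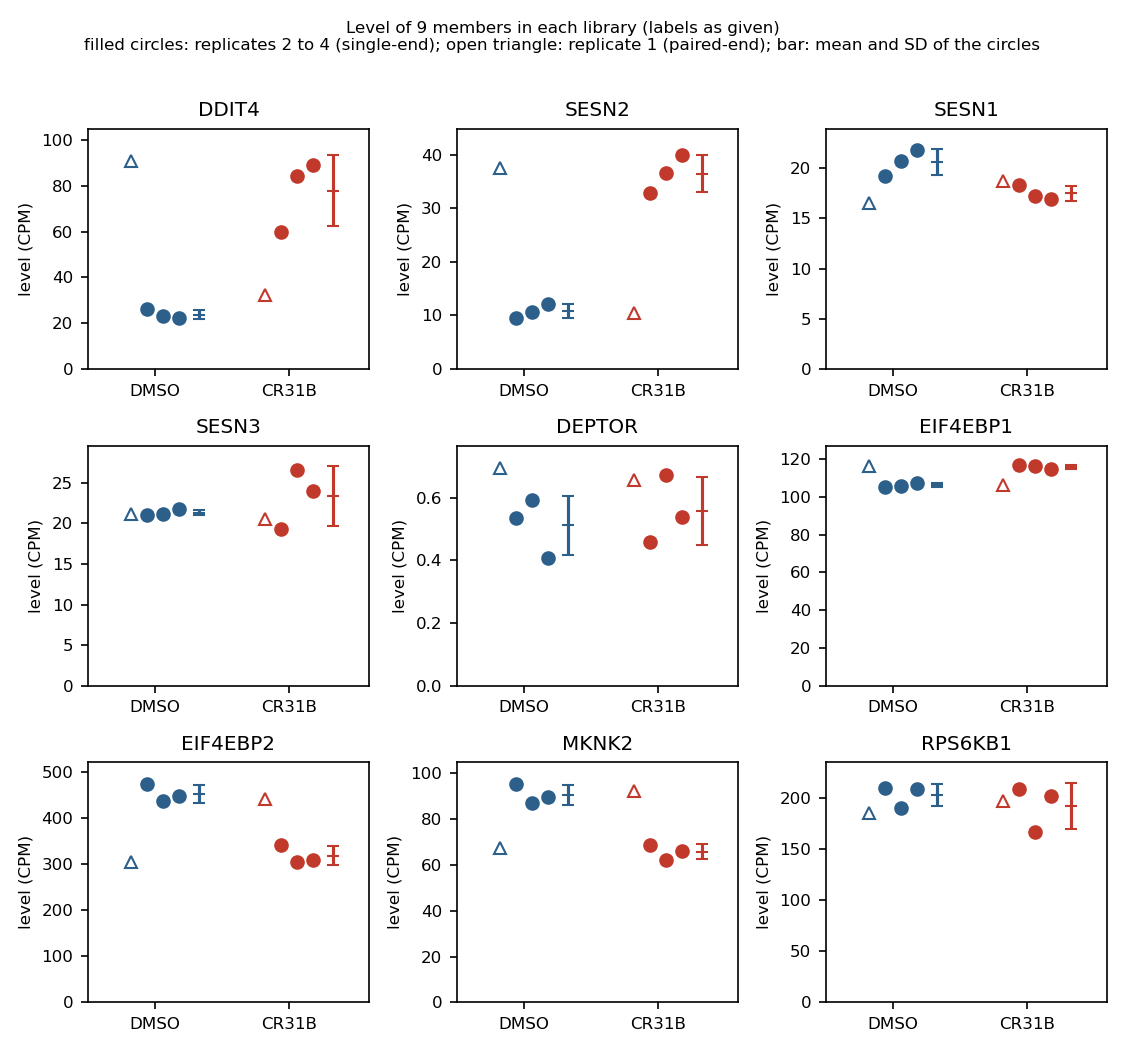
TMM-normalised CPM, one panel per gene, by labelled group. Filled circles are the single-end libraries (replicates 2 to 4), open triangles replicate 1, and bars the mean ± SD of the single-end libraries. For SESN2 each triangle lies within the range of the other group's circles. For DDIT4 each lies above that range, though nearer to the other group's mean than to its own.

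Among the regulators of eIF4E, EIF4EBP2 and MKNK2 were lower under CR31B in the single-end libraries, by 29.4% and 27.3%, while EIF4EBP1 was 9.55% higher. EIF4EBP1 and EIF4EBP2 encode 4E-BP1 and 4E-BP2. MKNK2 encodes MNK2, a kinase that docks on eIF4G and phosphorylates eIF4E. The promoters of these 2 lower messages are printed as well. They come from chr10:70403895-70404144 (plus strand) for EIF4EBP2 and chr19:2051245-2051494 (minus strand) for MKNK2. Neither window has an ATTGG or CCAAT, a motif searched after the sequences had been read. SESN1, which was also lower, does have it, so its presence does not divide the higher from the lower messages.
EIF4EBP2: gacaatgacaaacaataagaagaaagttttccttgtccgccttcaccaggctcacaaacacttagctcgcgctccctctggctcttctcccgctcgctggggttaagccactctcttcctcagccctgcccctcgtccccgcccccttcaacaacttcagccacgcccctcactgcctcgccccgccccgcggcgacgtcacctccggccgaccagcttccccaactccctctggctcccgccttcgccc
MKNK2: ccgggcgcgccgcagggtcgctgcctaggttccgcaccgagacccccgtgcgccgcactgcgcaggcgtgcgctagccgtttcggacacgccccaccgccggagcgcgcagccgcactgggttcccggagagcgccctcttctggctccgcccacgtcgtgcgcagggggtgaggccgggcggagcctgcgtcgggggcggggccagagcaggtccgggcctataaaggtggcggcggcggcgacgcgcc

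EIF4EBP2 (ENSG00000148730, chromosome 10, 70404379 to 70428618, plus strand) had 342, 304 and 309.5 CPM in CR31B replicates 2 to 4 and 474, 436 and 447 CPM in DMSO. In replicate 1 the CR31B library had 441 CPM and the DMSO library 305 CPM. The single-end groups did not overlap, and each replicate 1 library lay near the other group. The means of 319 ± 20.6 and 452 ± 19.3 CPM (SD, n = 3) differed by a log2 fold change of -0.50 ± 0.06 (SE, adjusted p = 9.74e-05, edgeR), with CR31B 29.4% lower. The pair differences were -0.47, -0.52 and -0.53 in pairs 2 to 4 and 0.53 in pair 1. Over 8 libraries as labelled the log2 fold change was -0.25 ± 0.17 (SE, adjusted p = 0.707).

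MKNK2 (ENSG00000099875, chromosome 19, 2037465 to 2051244, minus strand) had 68.8, 62.3 and 66.2 CPM in CR31B replicates 2 to 4 and 95.3, 86.9 and 89.4 CPM in DMSO. The replicate 1 values were 92.0 CPM for CR31B and 67.5 CPM for DMSO. No single-end CR31B library reached the lowest DMSO library. MKNK2 was 27.3% lower, a log2 fold change of -0.46 ± 0.06 (SE, adjusted p = 0.000127, edgeR), with pair differences of -0.47, -0.48 and -0.43, and 0.45 in pair 1. Over 8 libraries as labelled it was -0.24 ± 0.15 (SE, adjusted p = 0.707).

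EIF4EBP1 (ENSG00000187840, chromosome 8, 38030341 to 38060365, plus strand) had 117, 116 and 115 CPM in CR31B replicates 2 to 4 and 105, 106 and 107 CPM in DMSO. In replicate 1 it had 106.5 CPM under the CR31B label and 116 CPM under the DMSO label. The replicate 1 values again lay at the level of the other group. The 9.55% higher level corresponded to a log2 fold change of 0.13 ± 0.04 (SE, adjusted p = 0.0354, edgeR), and over 8 libraries the value was 0.07 ± 0.07 (0.728). The single-end size and call varied with the setting. With GC and length offsets the log2 difference was 0.27 (adjusted p = 0.0026), while it was 0.04 (adjusted p = 0.518) with upper quartile scaling, 0.05 (0.344) with total count scaling and 0.12 (0.0637) with RLE scaling. The replicate block kept the call (0.0153). DESeq2 gave an adjusted p of 0.0946, the filter of 1 CPM 0.086 and no filter 0.162. The call was also lost without any of CR31B replicates 2 or 4 or DMSO replicates 2, 3 or 4 (adjusted p 0.0666 to 0.12).

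RPS6KB1 (ENSG00000108443, chromosome 17, 59893046 to 59950564, plus strand), which encodes the S6 kinase S6K1, did not pass in either fit. It had 208, 166 and 201.5 CPM in CR31B replicates 2 to 4 and 209, 190.1 and 208 CPM in DMSO, and the groups overlapped. The replicate 1 libraries had 197 CPM (CR31B) and 184.6 CPM (DMSO). The log2 difference was -0.08 ± 0.08 (SE, adjusted p = 0.495, edgeR), and -0.03 ± 0.09 (0.883) over 8 libraries. With offsets for GC content and transcript length the single-end value was -0.28 and passed (adjusted p = 0.0289), and with these offsets and the replicate block it was -0.29 (adjusted p = 0.000256).

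**Figure D2:**
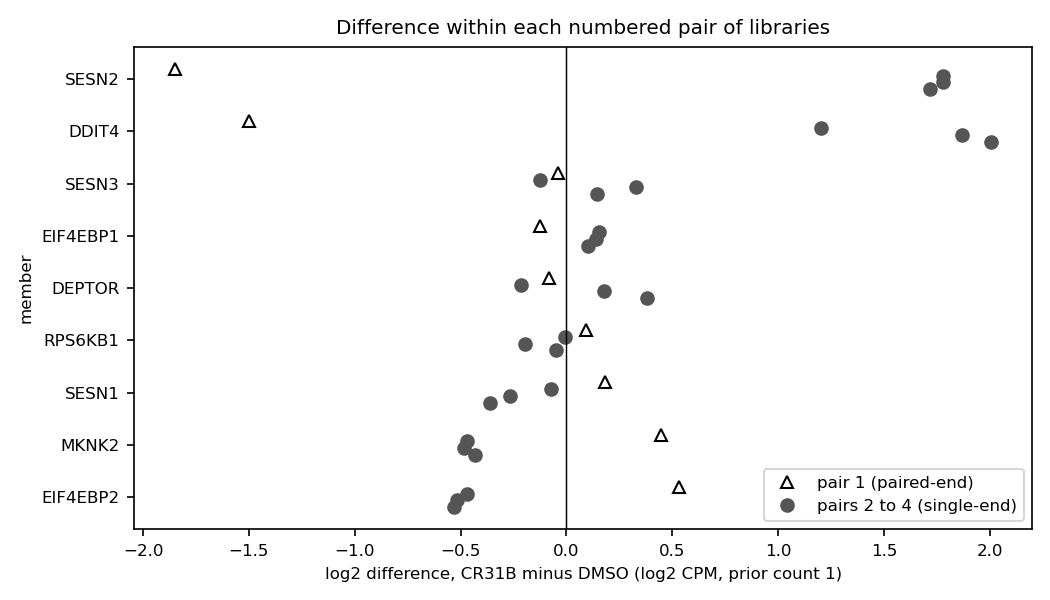
Log2 difference in CPM between the CR31B and DMSO libraries of the same replicate number, by gene. Triangles are pair 1 and circles pairs 2 to 4. For DDIT4, SESN2, EIF4EBP2 and MKNK2 the triangle mirrors the circles across 0.

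The difference between replicate 1 and the single-end replicates was tested as a treatment by layout term, with the spread taken from the single-end libraries, since each group has 1 paired-end library. The same 6 genes passed, where 42.5% of 16518 genes did. The term was -3.21 ± 0.26 for DDIT4 (SE, adjusted p = 8.87e-06, edgeR) and -3.61 ± 0.20 for SESN2 (adjusted p = 1.17e-06). It was 1.03 ± 0.12 for EIF4EBP2 (adjusted p = 8.1e-05) and 0.91 ± 0.11 for MKNK2 (0.000141). SESN1 gave 0.41 ± 0.15 (0.0449) and EIF4EBP1 -0.26 ± 0.09 (0.0388). The EIF4EBP1 term did not pass with RLE (adjusted p = 0.0709) or total count scaling (0.449), nor without CR31B replicate 2 or 4 or DMSO replicate 2, 3 or 4 (0.0582 to 0.0947). The SESN1 term did not pass without CR31B replicate 3 or 4 or DMSO replicate 3 or 4 (0.0533 to 0.0905). Over the 10 genes, 7 had the same direction in pairs 2 to 4 and all 7 ran the other way in pair 1, where 64.6% of all genes showed that pattern. The single-end groups did not overlap for 6 genes, where 52.1% of all genes did not. Layout and replicate number coincide, so they cannot be told apart. Exchanged labels in replicate 1 and an opposite difference in that replicate cannot be told apart either, which bears on every value over 8 libraries and on every term of this test.

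The genes were compared with each other as CPM per kilobase of all annotated exons, so their order depends on those lengths. In the single-end DMSO libraries EIF4EBP1 had the highest level, 98.9, followed by EIF4EBP2 at 62.3, RPS6KB1 at 26.3, MKNK2 at 17.3 and DDIT4 at 11.6. SESN1 (4.02), SESN2 (3.12), SESN3 (2.02), DEPTOR (0.195) and CASTOR1 came below them, and no 2 neighbours in this order overlapped between the 3 libraries. In the single-end CR31B libraries DDIT4 came next after EIF4EBP2 at 37.9 ± 7.60 (SD, n = 3), with a range that overlapped that of EIF4EBP2, whose mean was 43.9. SESN2, at 10.6 ± 1.02, was above SESN1 (3.42) and SESN3 (2.21).

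Sums over each family, added after the data had been seen, put these levels together. The 3 sestrins summed to 14.9, 16.5 and 17.2 CPM per kilobase in CR31B replicates 2 to 4 and to 8.53, 9.13 and 9.82 in DMSO. In replicate 1 the sums were 8.62 (CR31B) and 16.1 (DMSO). SESN2 made up 65.2% ± 1.94 of the single-end CR31B sum and 34.0% ± 1.61 of the DMSO sum (SD, n = 3). The sum of the 4E-BP messages moved much less, with means of 152 ± 3.65 and 161 ± 2.48. Within it EIF4EBP2 held 28.9% ± 1.18 under CR31B and 38.6% ± 1.12 under DMSO. These sums and shares rest on the length of all annotated exons, 1.073 kb for EIF4EBP1 and 7.257 kb for EIF4EBP2. The transcripts in use were not determined. Without division by length EIF4EBP2 was the larger message, at 319 CPM (CR31B) and 452 CPM (DMSO). EIF4EBP1 then had 116 and 106 CPM, so the near-constant sum depends on the lengths. No test was run on the sums.

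**Figure D3:**
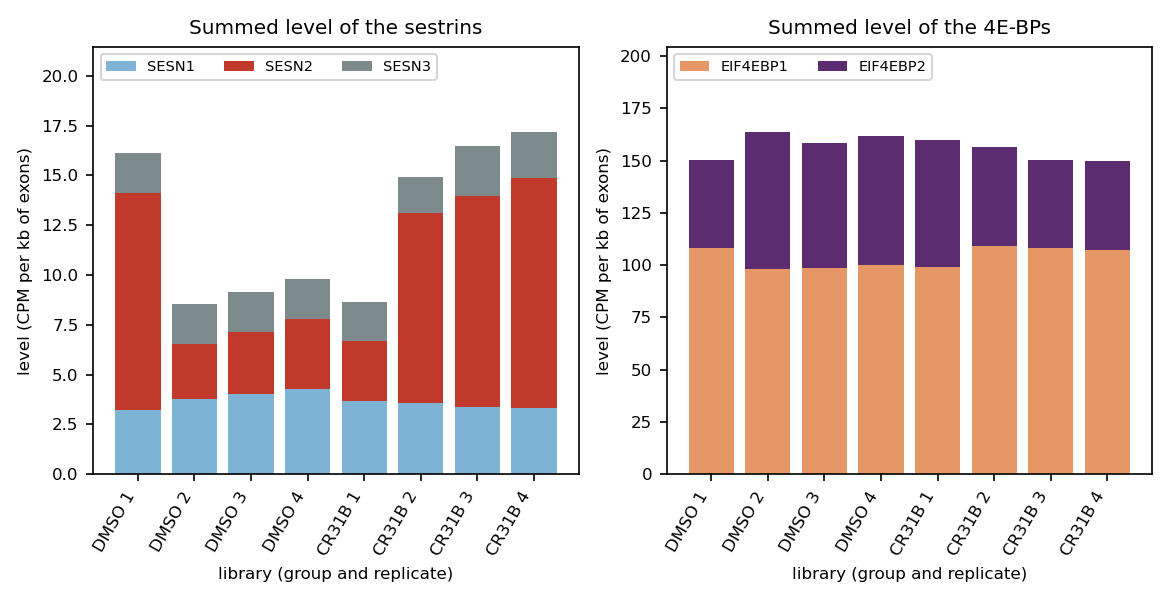
Stacked CPM per kilobase of exons in each library for the 3 sestrins and the 2 4E-BP messages. In the sestrin panel the SESN2 share is larger in CR31B replicates 2 to 4 and in the library labelled DMSO replicate 1.

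For the 3 genes with the largest single-end change, the genes with the most similar 4 pair differences were found by root mean square distance among 10797 genes of at least 5 CPM. For SESN2 they were GATA3, at a distance of 0.0364, and MAB21L2, at 0.0478, where the median gene was at 1.76. GATA3, a transcription factor of adrenergic neuroblasts, had a single-end log2 fold change of 1.78. For DDIT4 they were BACH2 (0.149) and INHBE (0.202), beside a median of 1.65. For EIF4EBP2 they were OSTM1 (0.0177) and SH3BP2 (0.0223), beside a median of 0.551. The nearest of so many genes lies far below the median by selection. Each median was near the size of the change of SESN2, DDIT4 or EIF4EBP2 itself. The distances are therefore a description, and shared regulation was not tested.

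The RefSeq promoter table held 8 of the 10 genes in 10 windows of 300 bases, 250 before the start and 50 after. The ATF4-type element TGATGNAA occurs in 3.62% of 35116 windows, the E-box CACGTG in 7.26%, the FOXO-type GTAAACA in 3.42% and the CRE TGACGTCA in 1.85%, on either strand, and no window of these 8 genes held any of them. CCAAT, searched after the promoter sequences had been read, occurs in 34.6% of windows. Of the 8 genes, 4 have it in at least 1 window, CASTOR1, DDIT4, SESN1 and SESN2. The share counts windows and the 4 counts genes, some with more than 1 window, so the figures are not alike.

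Beyond the 10 genes, 102 others of the pathway were taken from 13 lists, of which 99 were tested in the single-end libraries. Of these 35 were higher and 26 lower, and 0 were called with all 8 libraries as labelled. The counts of each list below stand beside the shares over all genes in the single-end libraries, 41.3% called, 23.8% higher and 17.6% lower. These shares are those of the main fit and differ under other settings. Of the 4 tested mTORC1 core genes, RPTOR, the scaffold that presents substrates, rose by a log2 fold change of 0.59 (adjusted p = 1.59e-05, edgeR). AKT1S1, which encodes the inhibitor PRAS40, fell by 0.35 and MLST8 by 0.20, while MTOR was at -0.01 and did not pass. None of the 4 tested mTORC2 genes passed, although with the replicate block RICTOR did (0.15, adjusted p = 0.0368, edgeR). In the TSC and RHEB list 3 of 5 were lower, TBC1D7 (-0.34), TSC2 (-0.23) and RHEB (-0.17), where 17.6% of all genes were. With RLE, upper quartile or total count scaling or the replicate block TSC1 passed too and 4 of 5 were lower. The 17.6% is that of the main fit, which called 6901 genes, 57.5% of them higher. The 3 scalings called 6912, 7519 and 7375 genes, with 55.3%, 40.0% and 43.1% of them higher. The calls of MLST8 (adjusted p = 0.0549) and RHEB (0.166) were lost with GC and length offsets, and that of RHEB also without CR31B replicate 3 or 4 or DMSO replicate 2 or 4.

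Among the amino acid arm, the lysosomal transporter SLC38A9 rose by 0.83 (adjusted p = 4.81e-06, edgeR) and FLCN by 0.37, while LAMTOR5 fell by 0.34, and in all 3 of 13 tested genes of their list were higher and 5 lower. NPRL3, a subunit of GATOR1, fell by 0.46. In GATOR2 and the other sensors MIOS (0.61) and WDR24 (0.30) were higher and CASTOR2 (-0.42) lower, of 6 tested. The CASTOR2 call was lost with GC and length offsets (adjusted p = 0.148) and without CR31B replicate 3 or 4 or DMSO replicate 2 or 4.

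Upstream of mTORC1, PIK3R1, the regulatory subunit of PI3-kinase, rose by 1.49, IRS1, an insulin receptor substrate, by 1.28 and IRS2 by 0.64. In the S6 kinase branch PDCD4, an eIF4A inhibitor that S6 kinases mark for degradation, rose by 0.79 and RPS6KA3 by 0.53. RPS6KB2, which encodes S6K2, fell by 0.38. In this list 2 were higher and 2 lower of 7, where 41.3% of all genes were called. With the replicate block 3 were higher and 3 lower, and the share over all genes under that block is not given here. Adding the block to the offset fit raised the calls over all genes from 6475 to 8463. Of eIF4E and its other regulators 3 of 8 were higher, among them the transport protein EIF4ENIF1 (0.53) and the scaffold EIF4G1 (0.37), and EIF4E2 (-0.35) was the only lower one. EIF4E was at 0.08 (adjusted p = 0.294), and with GC and length offsets it was at -0.21 and passed (adjusted p = 0.0309), which with other genes brought the lower count to 4.

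Stress-response and lysosome targets were read as neighbours of these routes. The lists had been chosen with earlier results of these data known, so their standing is a description. Of 8 tested genes of the ATF4 branch 7 were higher, with a median of 1.17, led by CHAC1 (2.99), CEBPB (1.30) and VLDLR (1.22). The 1 lower gene was PPP1R15A (-0.47). DDIT3 rose by 0.37, and its call was lost with upper quartile (adjusted p = 0.116, edgeR) and total count scaling (0.103). ATF4 itself rose by 0.39 (adjusted p = 0.000203, edgeR). Of 10 tested p53 targets 4 were higher, SESN2, PHLDA3 (0.88), BBC3 (0.46) and MDM2 (0.185), and 1, SESN1, lower, where 41.3% of all genes were called. The MDM2 call was lost with upper quartile (adjusted p = 0.170, edgeR) and total count scaling (0.0997). It was also lost with GC and length offsets, at -0.07 (0.443). The other 5, CDKN1A (-0.15, adjusted p = 0.413), FAS, GDF15, TP53INP1 and ZMAT3, did not pass. Of 10 tested genes of the FOXO list 5 were higher, where 23.8% of all genes were, and 1, CCNG2 (-0.34), lower, with a median of 0.46. The largest were FOXO3 (0.77), FOXO1 (0.76) and BCL6 (0.71). FOXO3 and FOXO1 are FOXO factors themselves. Levels were low for FOXO1, at 1.62 to 3.76 CPM, and BCL6, at 1.05 to 2.26 CPM. That list also holds SESN3 and IRS2. Of 14 tested TFEB and TFE3 targets 8 were lower and 3 higher, beside 17.6% and 23.8% of all genes, led by SQSTM1 (-1.11, adjusted p = 1.64e-06, edgeR), CTSD (-0.77) and WIPI1 (-0.69). Of the list genes called in the single-end libraries, every one ran the opposite way in pair 1, except ATP6V0D1 of the TFEB and TFE3 list.

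**Figure D4:**
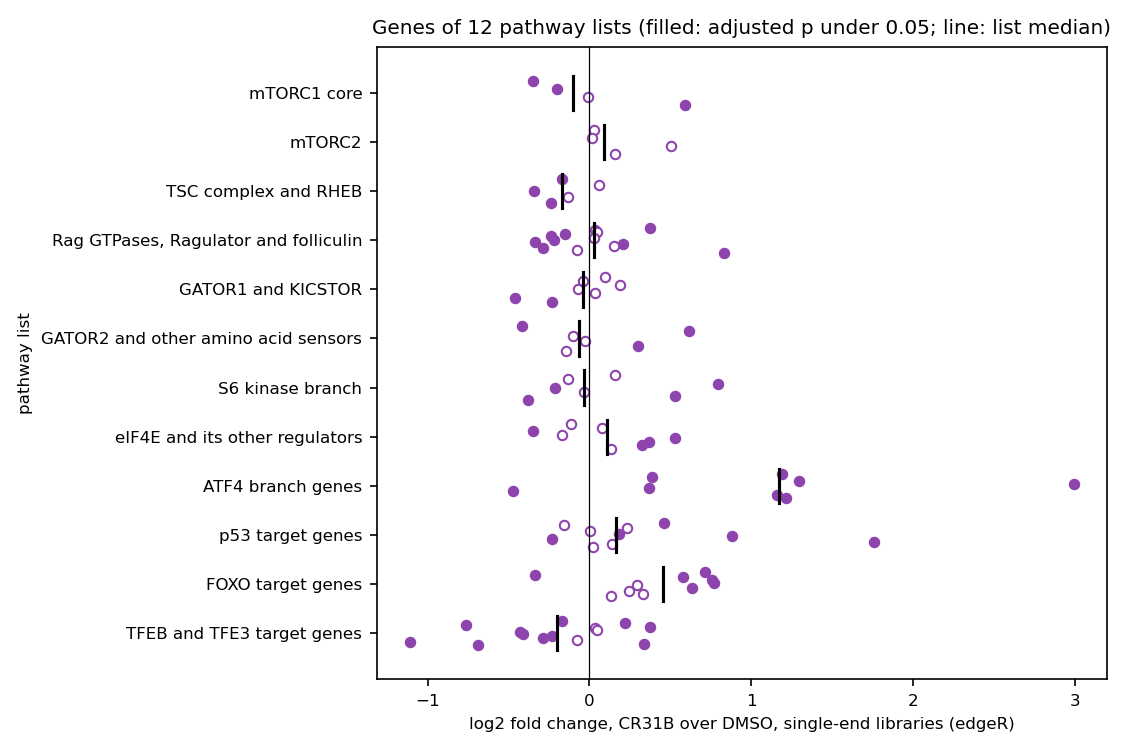
Single-end log2 fold change of each tested gene in 12 of the lists. Filled points passed an adjusted p of 0.05 (edgeR), open points did not, and the short line is the list's median. The ATF4 branch stands highest, and the TFEB and TFE3 targets lie mostly below 0.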

How the data were processed

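Polyadenylated RNA of IMR32 cells was counted in 8 libraries. The deposited table holds raw counts per Ensembl gene. Per the submitters' processing notes the tools included FastQC 0.11.7, STAR 2.7.2b, edgeR 3.36.0 and limma 3.50.3 with build GRCh38. The counting tool and annotation are not given in the sources used here, nor is the strand setting beyond the word reverse in the name of the deposited table. Per the labels' protocols the kit was one for small RNA, while the molecule is polyadenylated RNA. Columns were assigned to libraries by name, and genes were annotated from GENCODE release 29 by identifier (58515 of 58787).

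The main test was the two-sided quasi-likelihood test of edgeR 4.0.16 (R 4.3.3), on genes kept by filterByExpr and scaled by TMM, with layout as a covariate over 8 libraries, and p-values were adjusted by Benjamini-Hochberg over all tested genes at a threshold of 0.05. Pair differences used log2 CPM (prior count 1). The test estimated the spread between libraries, a coefficient of variation of 7.46% in the single-end fit and 16.3% over 8 libraries. Libraries showed no duplicates (smallest mean chi-square per gene 7.32). Deviations from group means correlated at 0.208, 0.388 and 0.157 for single-end replicates 2, 3 and 4, and at most at 0.0937 between unlike numbers. Deviations from a group mean sum to 0, which lowers the values for unlike numbers. The main single-end fit holds no replicate term, and the replicate block was run as an alternative. On simulated counts for 16377 genes with the replicate 1 labels exchanged, the single-end fit recovered 67% of genes changed by a log2 of 0.5 and 91% of those changed by 1. With that exchange the fit of all 8 libraries called 0 of 16371 genes and recovered 0% at either size, and without it the fit recovered 74% and 94% over 16395 genes. The simulation changed only 200 genes, gave every gene the same spread and held no replicate effect, so its rates need not hold for these data. Its 0 calls follow from the exchange built into it, and whether the labels were exchanged was not tested.

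Some list results are not reported here. The genes and lists were chosen with earlier results of these data known. All 10 genes were named, plus up to 3 per list by the largest single-end change among genes that passed, had a mean of at least 1 CPM and kept 1 direction in pairs 2 to 4, and the 2 nearest genes for each of 3. Alternatives were DESeq2 1.42.0, voom in limma 3.58.1, RLE, total count and upper quartile scaling, 2 filters, no layout term, a replicate block, GC and length offsets, and leaving out libraries.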

Additional observations from a re-analysis of the deposited data

Results flagged for a closer look

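In 3 of 18 groups of 4 libraries tested, 1 library lay far from the others, where chance flags about 1 in 20 groups, or 0.9 of 18. The gap to the nearest library as a share of the range was 0.885 for DDIT4 in the DMSO group (the library labelled DMSO replicate 1). It was 0.856 for SESN2 in the CR31B group (the library labelled CR31B replicate 1) and 0.895 for SESN3 in the DMSO group (DMSO replicate 4). All were above Dixon's critical value for 4 samples. For SESN3 the gap was small in size, 21.7 CPM beside 21.1 to 21.2 CPM. The DDIT4 and SESN2 flags fall on replicate 1, where most called genes differed the opposite way. They are therefore not separate chance events, and the 3 flags cannot be weighed against 0.9.

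The change in replicate 1 differed from that in the single-end replicates by a tested treatment by layout term for 6 genes: DDIT4 (-3.21), SESN2 (-3.61), EIF4EBP2 (1.03), MKNK2 (0.908), SESN1 (0.414) and EIF4EBP1 (-0.257). The cause was not tested.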

How the results depend on the processing

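With all 8 libraries 0 of the genes were called under the 9 other settings run, and 0 to 6 when libraries were left out. The 6 came without CR31B replicate 1, without DMSO replicate 1 or without both, and were the same 6 genes as in the single-end libraries. There 5 to 7 were called over the settings and 4 to 6 when 1 library was left out, and DDIT4, SESN2, EIF4EBP2 and MKNK2 were called in each. The replicate block gave 6 and changed no other call of the 10 genes. Among the list genes it added 7 calls, RICTOR among them. The interaction gave 5 with RLE or total count scaling and 4 to 5 in leave-outs. SESN3 turned to -0.16 (adjusted p = 0.197) with GC and length offsets, and to -0.16 (0.0795) with these and the replicate block, and its interaction to 0.0015 with total count scaling. In leave-outs SESN3 ran from -0.0037 to 0.17 over 8 libraries, DEPTOR from -0.062 to 0.15 and in the single-end libraries from -0.058 to 0.24, and RPS6KB1 from -0.077 to 0.040 and from -0.14 to 0.020. With GC and length offsets 3 rather than 5 genes of the Rag list were lower, 1 rather than 2 of the mTORC1 core, 2 rather than 1 of the GATOR2 and p53 lists, and with upper quartile scaling 3 of the GATOR2 list and of the eIF4E list. The share of higher calls over all genes was 57.5%, 55.3% with RLE, 40.0% with upper quartile, 43.1% with total count scaling and 49.5% with offsets. Depth limits DEPTOR and CASTOR1, and DEPTOR was not tested under the filter of 1 CPM.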
